A study of Homo sapiens with 18 samples.

Results

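The calreticulin and calnexin cycle is the quality control of newly made glycoproteins in the endoplasmic reticulum (ER). Glucosidases trim the glucose residues of an N-linked glycan until 1 remains, and the lectin chaperones calreticulin and calnexin then hold the glycoprotein while it folds. A sensor glucosyltransferase adds a glucose back to proteins that have not folded, which returns them to the chaperones, and mannose trimming takes the ones that fail out of the cycle. CALR itself is mutated in myeloproliferative neoplasms.

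Here 10 genes of the cycle were described: CALR, CANX, PDIA3, UGGT1, UGGT2, GANAB, PRKCSH, MOGS, MAN1B1 and MLEC. They were taken as the probe sets whose symbol in the probe table was exactly 1 of these genes, which gave 32 of 54675 probe sets and 10 of the 19775 genes that such a probe set names. All 32 were tested, with no filter on low values. Each gene was represented by its main probe set, the one with the highest mean over all 18 arrays, and every other probe set was reported beside it.

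The cells were K562, a human chronic myeloid leukemia line that carries its own CALR. They were transduced with a retroviral vector for wild-type CALR (LCALRwtIDN, CALRwt) or for a mutated form, the deletion type (LCALRdel52IDN, CALRdel52) or the insertion type (LCALRins5IDN, CALRins5), and transduced cells were purified by the NGFR marker. Cells of each vector were profiled untreated or upon exposure to Melittin (MEL), a peptide of bee venom used to induce oxidative stress, at 5 μg/mL for 24 h. The comparison of vectors asks what mutated CALR does to expression, and the comparison with MEL asks how the cells respond to this agent.

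Each of the 6 groups had 3 arrays, so that 9 arrays were untreated and 9 were exposed to MEL. All cells received a CALR vector, and no group without one was analysed here. The sources differ on the untreated cells. The series design describes a culture of equal length without MEL, whereas the labelling protocol has their RNA taken directly after sorting, in which case culture time and MEL cannot be told apart. Sorted cells came from 3 independent experiments according to the labels. Nothing says this of the MEL cultures, and their p-values may then measure only technical spread. In these bulk samples, fewer cells of a kind and less RNA per cell cannot be told apart.

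Expression is given as log2 signal, and a difference of 1 on this scale is a doubling. Array medians lay between 4.56 and 4.66. All 8 measured K562 markers lay above the median probe set (4.61), with means of 7.72 for EPOR to 12.33 for TFRC. Of the markers of other cells, 3 of 4 measured lymphoid, 1 of 3 monocyte and 2 of 3 fibroblast markers lay above it. The mean of the monocyte list ranged from 5.73 to 6.0 in untreated and from 5.74 to 6.15 in MEL arrays, with CD14 at 3.50 on average, LYZ at 10.11 and CSF1R at 4.14. The lymphoid list ranged from 5.65 to 5.85 untreated and from 5.61 to 5.92 with MEL. The fibroblast list ranged from 4.95 to 5.38 and from 5.01 to 5.24. The signal of the 3′ probe set of GAPDH over its 5′ probe set, which increases as RNA is degraded, was 0.31 to 0.41 log2 in untreated arrays and 0.42 to 1.33 with MEL. CALRins5 MEL replicate 1 had the highest value, and in CALRdel52 MEL replicate 3 the median r with all other arrays was lowest (0.989).

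The ER stress response element (ERSE) is a promoter motif through which the unfolded protein response increases the transcription of ER chaperones, and it is shown because it was found in the windows of both lectin chaperones. Promoter windows of 250 bases before to 50 bases after a gene's start were taken from RefSeq (GRCh38.p14). They held 8 of the 10 genes, with PDIA3 and MOGS not among them. Its letters CCAAT and CCACG with any 9 bases between them, 19 bases in all, searched on both strands, occurred in 27 of 35116 windows (0.0769%). The windows of 2 of the 8 genes, CALR and CANX, held a match, beside 25 of all 27305 genes with a window (0.0916%). The matched letters are in capitals and the spacer in lower case:

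CALR, chr19:12938384-12938402, as read on the gene's strand, where the match lies on the opposite strand: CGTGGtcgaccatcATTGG

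CANX, chr5:179698778-179698796, on the gene's strand: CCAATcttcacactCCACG

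The first base of the match lay 225 bases before the CALR start. That of the CANX match lay 9, 151 or 189 bases before 3 of its annotated starts, and the match ran past the nearest of them. The 250 bases before the CALR start, chr19:12938359-12938608 on the plus strand, show where the match sits, again in capitals:

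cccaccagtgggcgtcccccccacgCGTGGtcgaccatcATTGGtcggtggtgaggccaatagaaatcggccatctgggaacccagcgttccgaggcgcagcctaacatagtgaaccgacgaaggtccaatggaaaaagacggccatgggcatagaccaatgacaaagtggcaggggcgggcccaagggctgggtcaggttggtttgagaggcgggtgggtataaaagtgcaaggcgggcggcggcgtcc

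The windows of the 8 genes held no match to ERSE-II (ATTGG and CCACG with any 1 base between them, 0.0541% of all windows), to the core of the unfolded protein response element (TGACGTG, 1.97%) or to the C/EBP-ATF response element (TGATGNAA, 3.62%). These are matches of letters and say nothing of binding.

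Upon MEL exposure, over the 3 vectors, the main probe sets of 5 of the 10 genes were higher and none was lower at an adjusted p under 0.05. These were CALR, PDIA3, PRKCSH, UGGT2 and MLEC. Among the main probe sets of all 19775 genes, 36.7% were called, 18.6% higher and 18.1% lower. The median difference of the 10 genes was 0.17, against 0.04 over all probe sets. With arrays centred on their medians, 34.8% of all calls were higher instead of 50.7%, and 4 of the 10 genes were called, all higher. None of the 10 main probe sets separated the 9 MEL arrays from the 9 untreated arrays without overlap, as 8.88% of all main probe sets did. CANX, UGGT1, GANAB, MOGS and MAN1B1 were not called, with differences of 0.00 to 0.14.

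**Figure D1:**
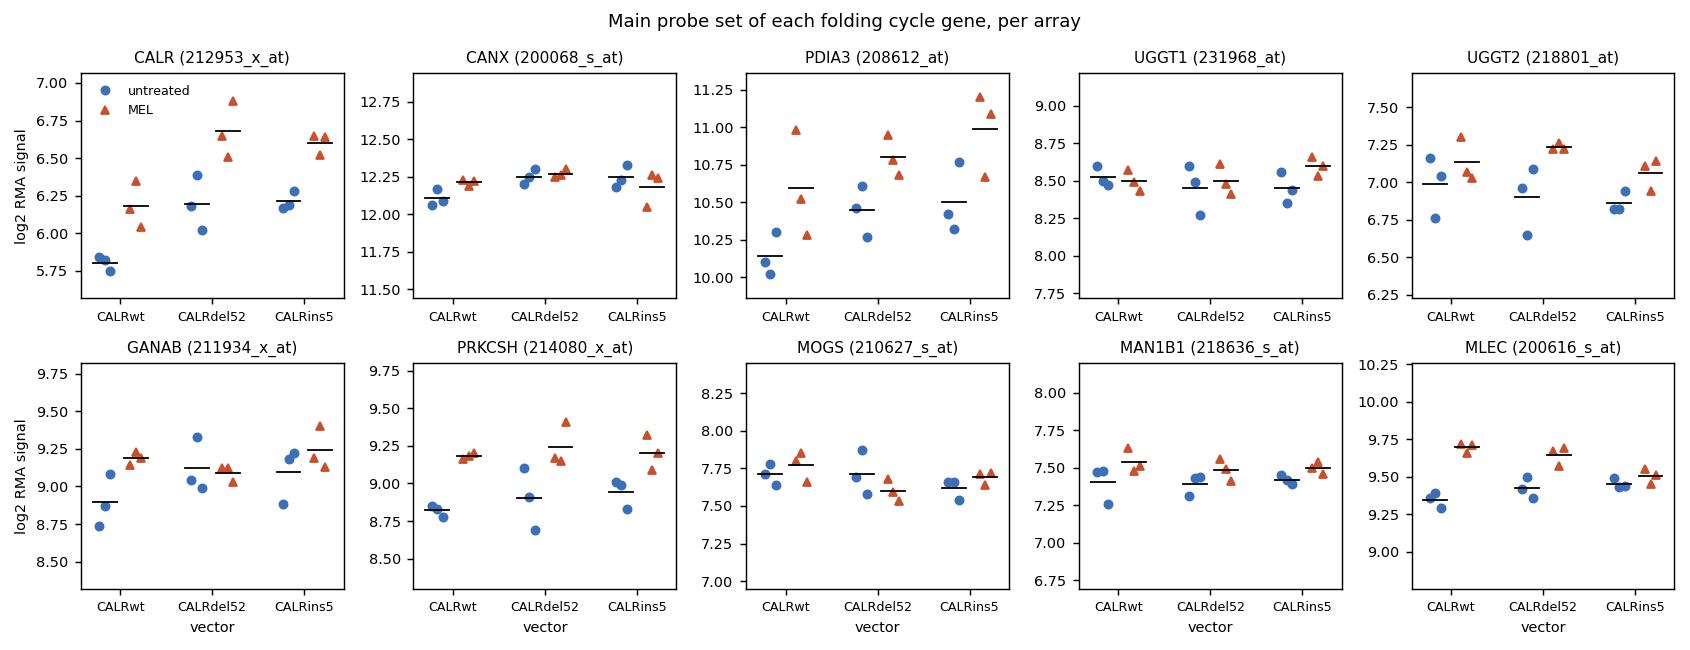
Log2 RMA signal (vertical axis) of the main probe set of each of the 10 genes against the vector (horizontal axis). Each symbol is an array, a circle if untreated and a triangle if exposed to MEL, and bars mark the means of 3. Every panel spans 1.5 log2 units, and CALR arrays with MEL lie above the untreated arrays of the same vector in all 3 vectors.

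CALR, the soluble lectin chaperone of the ER lumen and the gene carried by the vectors, had 3 probe sets. In untreated cells its main probe set 212953_x_at had values of 5.84, 5.82 and 5.75 in CALRwt, 6.18, 6.39 and 6.02 in CALRdel52, and 6.17, 6.19 and 6.28 in CALRins5. With MEL the values were 6.16, 6.35 and 6.04 in CALRwt, 6.65, 6.51 and 6.88 in CALRdel52, and 6.65, 6.52 and 6.64 in CALRins5. Within each vector all 3 MEL arrays lay above all 3 untreated arrays, and within each treatment all 6 mutated arrays lay above all 3 CALRwt arrays. Over the 3 vectors CALR rose with MEL by 0.42 (SE 0.06, limma adjusted p = 5.82e-05), a fold of 1.34. The rise was 0.38 in CALRwt (adjusted p = 0.0243), 0.48 in CALRdel52 (adjusted p = 0.00872) and 0.39 in CALRins5 (adjusted p = 0.0281). The call over the 3 vectors held in all 32 alternatives that were run, with differences of 0.27 to 0.47.

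The other CALR probe sets lay below the median probe set of the arrays on average, with values of 3.00 to 4.77 for 214315_x_at and 2.88 to 3.96 for 200935_at. With MEL, 214315_x_at rose by 0.59 (SE 0.12, limma adjusted p = 0.00077) and 200935_at by 0.27 (SE 0.08, limma adjusted p = 0.00989), the latter not called without replicate 3 of every group (0.30, limma adjusted p = 0.0763). Of the CALR probe sets, only 200935_at lacks the _x_ that marks probe sets able to bind several transcripts. Where such probe sets were left out, 200935_at stood for CALR. The rise was then not called in CALRwt (0.26, limma adjusted p = 0.214) or CALRins5 (0.12, limma adjusted p = 0.675) and stayed called in CALRdel52. Which of the CALR probe sets detect the vector transcripts beside the cells' own CALR RNA was not tested.

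CANX encodes calnexin, the membrane-bound lectin chaperone. Its main probe set 200068_s_at was at 12.11 ± 0.05 (SD, n = 3) in untreated CALRwt cells, 12.25 ± 0.05 in CALRdel52 and 12.25 ± 0.07 in CALRins5. With MEL it was at 12.22 ± 0.02, 12.27 ± 0.03 and 12.18 ± 0.12, respectively. The difference with MEL was 0.02 (95% interval −0.08 to 0.12, adjusted p = 0.765), an interval that ends below that of the CALR rise (0.29 to 0.55). Further probe sets of CANX gave lower values with MEL. 208853_s_at fell by 0.51 (SE 0.11, limma adjusted p = 0.00107) and 208852_s_at fell by 0.30 (SE 0.07, limma adjusted p = 0.00461). CALRins5 MEL replicate 1, the array with the highest GAPDH 3′ to 5′ value, had the lowest value on both, 9.21 and 10.59. Without this array both probe sets were still called lower. With the GAPDH 3′ to 5′ difference of each array as a covariate, neither was called, at −0.16 (adjusted p = 0.145) and −0.09 (adjusted p = 0.417). This covariate was higher in every MEL array than in every untreated array. A call kept or lost with it, here or below, therefore cannot tell RNA quality from MEL. Without replicate 3 of every group 208852_s_at was not called (−0.26, limma adjusted p = 0.0718). The remaining 238034_at and 238138_at differed by −0.03 and 0.18 and were not called.

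PDIA3 encodes the oxidoreductase ERp57, which binds to calreticulin and calnexin and forms disulfide bonds in their clients. Its main probe set 208612_at had untreated values of 10.10, 10.02 and 10.30 in CALRwt, 10.46, 10.61 and 10.27 in CALRdel52, and 10.42, 10.32 and 10.77 in CALRins5. With MEL they were 10.98, 10.52 and 10.28, then 10.95, 10.78 and 10.68, and then 11.20, 10.67 and 11.09. CALRdel52 was the vector in which the MEL and untreated arrays did not overlap. Over the 3 vectors PDIA3 rose by 0.43 (SE 0.10, limma adjusted p = 0.0023), a fold of 1.35, and in no single vector was it called. The call was lost with the GAPDH covariate (0.30, adjusted p = 0.129) and without replicate 1 of every group (0.29, adjusted p = 0.0829). The other PDIA3 probe sets, 227033_at (−0.05, 95% interval −0.16 to 0.07) and 229453_at (0.06, 95% interval −0.07 to 0.19), were not called. In CALRins5 they differed by −0.23 and −0.19, with all MEL arrays below the untreated ones, where 208612_at differed by 0.48. In CALRwt and CALRdel52 they differed by 0.04 to 0.19. None of these differences within a vector was called, and the PDIA3 rise was called on the main probe set alone.

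UGGT1 and UGGT2 encode the glucosyltransferases that sense incompletely folded glycoproteins and glucosylate them again. The probe sets of UGGT2 disagreed in direction. The main probe set of UGGT2, 218801_at, rose by 0.23 with MEL (SE 0.07, limma adjusted p = 0.0152). In contrast, 235749_at had untreated values of 7.33, 7.04 and 7.17 in CALRwt, 7.14, 7.19 and 7.15 in CALRdel52, and 6.98, 7.23 and 7.06 in CALRins5. With MEL it had 6.47, 6.54 and 6.11, then 6.15, 6.35 and 5.79, and then 6.41, 6.65 and 6.48. All 9 MEL arrays thus lay below all 9 untreated arrays, and the signal fell by 0.82 (SE 0.08, limma adjusted p = 4.68e-07), to 0.568 of the untreated level.

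A further UGGT2 probe set, 1555561_a_at, fell by 0.99 (SE 0.10, limma adjusted p = 1.07e-06), again with no overlap of the MEL and untreated arrays. Its untreated values were 5.97 to 6.32 and its MEL values 4.72 to 5.59. 1558467_a_at went the other way and rose by 0.50 (SE 0.12, limma adjusted p = 0.00252), with overlapping arrays. 1555560_at, at a signal of 2.09 to 2.75 and thus near the lowest of the arrays, fell by 0.22 (limma adjusted p = 0.0103). Its call was lost with the GAPDH 3′ to 5′ covariate (−0.17, limma adjusted p = 0.181) and without replicate 1 (−0.20, limma adjusted p = 0.0768) or replicate 3 (−0.19, limma adjusted p = 0.143) of every group, and that of 1558467_a_at without replicate 1 (0.50, limma adjusted p = 0.0536). 1558466_at (0.00) and 233945_at (0.09) were not called. With the GAPDH covariate both large falls stayed past the threshold, at −0.71 (adjusted p = 0.000144) for 235749_at and −0.70 (adjusted p = 0.000103) for 1555561_a_at. The rise of 218801_at did not, at 0.19 (adjusted p = 0.178), and its call was also lost with arrays centred on their medians (0.18, adjusted p = 0.0608) and without replicate 1 (0.23, adjusted p = 0.0864) or replicate 2 (0.17, adjusted p = 0.111) of every group. Which transcripts of UGGT2 each probe set detects was not tested.

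The main probe set of UGGT1, 231968_at, differed by 0.06 with MEL (95% interval −0.06 to 0.17, adjusted p = 0.456). Its values were 8.27 to 8.60 untreated and 8.41 to 8.66 with MEL. 222569_at fell by 0.47 (SE 0.06, limma adjusted p = 9.27e-06). Its 9 MEL arrays, at 6.52 to 7.19, all lay below the untreated ones, at 7.22 to 7.54. 218257_s_at fell by 0.34 (SE 0.05, limma adjusted p = 4.86e-05), while 222568_at (−0.16) and 244814_at (−0.10) were not called. With the covariate 222569_at and 218257_s_at stayed past the threshold, at −0.42 (adjusted p = 0.00154) and −0.36 (adjusted p = 0.00151).

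When the probe sets of each gene were averaged, UGGT1 fell by 0.20 (adjusted p = 0.00128), UGGT2 fell by 0.17 (adjusted p = 0.0129) and CANX fell by 0.13 (adjusted p = 0.0396). Each average had the opposite sign to the main probe set, which was called for UGGT2 only. UGGT2 thus had called probe sets in both directions, whereas those called for CANX and UGGT1 were all lower. CALR and MLEC had the same direction on every probe set, with all of them called, although only the main CALR probe set lay above the median probe set.

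**Figure D2:**
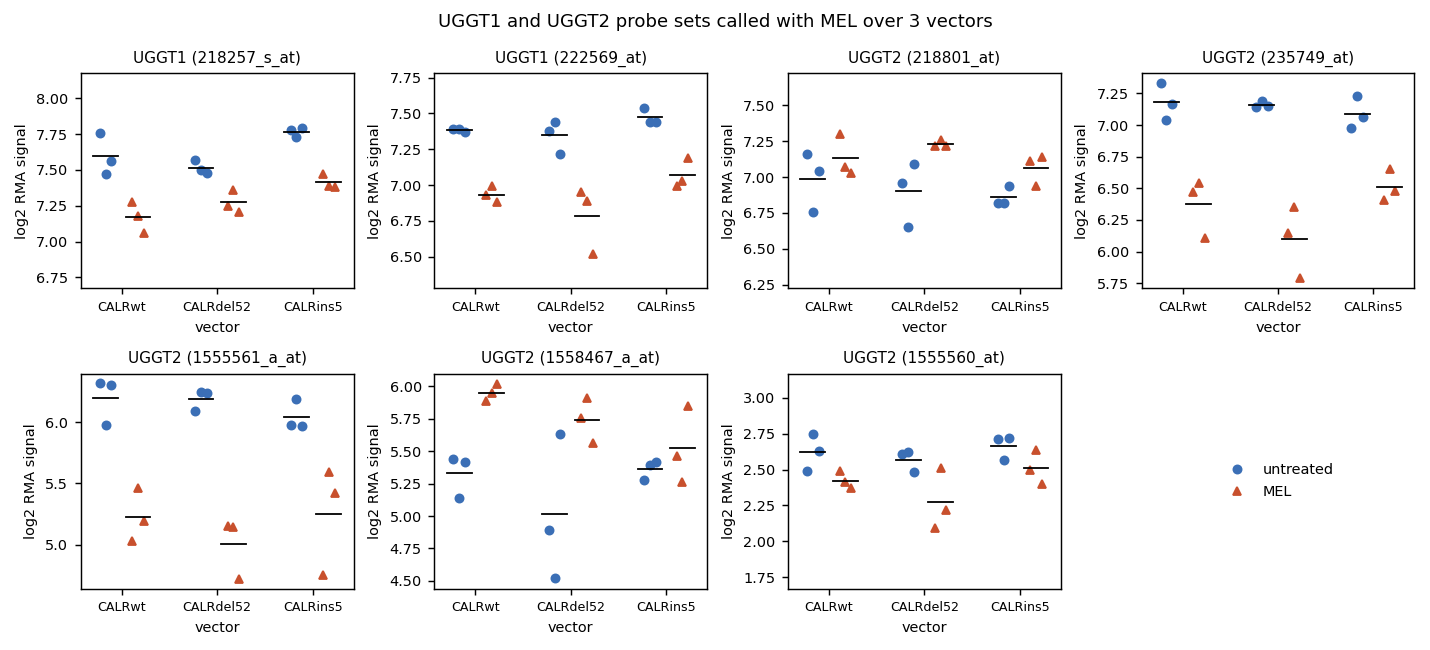
Log2 RMA signal (vertical axis) of the UGGT1 and UGGT2 probe sets called with MEL, against the vector (horizontal axis), with symbols and bars as in the plot of the main probe sets. For 235749_at, 1555561_a_at and 222569_at all MEL arrays lie below all untreated arrays, whereas for 218801_at and 1558467_a_at the MEL means lie above the untreated means in each vector.

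The glucosidases come first in the cycle. MOGS, which removes the outermost glucose, differed by 0.00 with MEL (95% interval −0.11 to 0.11) on its single probe set 210627_s_at. Its values were 7.54 to 7.87 untreated and 7.53 to 7.85 with MEL. Glucosidase II, which removes the next glucose residues, is a complex of the catalytic subunit GANAB and the subunit PRKCSH, which retains it in the ER. PRKCSH on 214080_x_at had untreated values of 8.85, 8.83 and 8.78 in CALRwt, 9.10, 8.91 and 8.69 in CALRdel52, and 9.01, 8.99 and 8.83 in CALRins5. With MEL they were 9.16, 9.18 and 9.20, then 9.17, 9.15 and 9.41, and then 9.32, 9.09 and 9.20, above the untreated arrays of the same vector in each case.

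PRKCSH rose by 0.32 (SE 0.06, limma adjusted p = 0.000444), with 0.36 in CALRwt (adjusted p = 0.0248), 0.34 in CALRdel52 (adjusted p = 0.0396) and 0.26 in CALRins5 (adjusted p = 0.127). Its other probe set 200707_at differed by 0.12 (adjusted p = 0.0901) and took its place where probe sets that can bind several transcripts (_x_ and _s_ in their names) were left out. GANAB, the catalytic partner, differed by 0.14 on 211934_x_at (95% interval 0.00 to 0.28, adjusted p = 0.126) and by 0.12 on 214626_s_at (adjusted p = 0.235). In CALRwt all 3 MEL arrays of GANAB, 9.14, 9.23 and 9.19, lay above the untreated 8.74, 8.87 and 9.08, and in the other vectors the arrays overlapped.

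MAN1B1, an alpha-mannosidase of the early secretory pathway whose trimming directs misfolded glycoproteins to degradation, differed by 0.10 on 218636_s_at (95% interval 0.00 to 0.20, adjusted p = 0.112) and by −0.03 on 65884_at. MLEC encodes malectin, an ER lectin that binds glucosylated glycans that glucosidase II trims. Its main probe set 200616_s_at had 9.36, 9.39 and 9.29 in untreated CALRwt cells and 9.72, 9.66 and 9.71 with MEL. In CALRdel52 it had 9.42, 9.50 and 9.36 untreated and 9.67, 9.57 and 9.69 with MEL. In CALRins5 it had 9.49, 9.43 and 9.44 untreated and 9.55, 9.45 and 9.51 with MEL. MEL and untreated arrays were apart in CALRwt and CALRdel52 and overlapped in CALRins5.

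Over the 3 vectors MLEC rose by 0.21 (SE 0.04, limma adjusted p = 0.00115), a call lost without replicate 3 of every group (0.17, limma adjusted p = 0.0542). The differences by vector were 0.35 in CALRwt (adjusted p = 0.00372), 0.22 in CALRdel52 (adjusted p = 0.0629) and 0.05 in CALRins5 (adjusted p = 0.758). Its second probe set 200617_at rose by 0.36 (SE 0.05, limma adjusted p = 2.66e-05), and all 9 MEL arrays, at 8.47 to 8.85, lay above all untreated arrays, at 8.14 to 8.43.

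**Figure D3:**
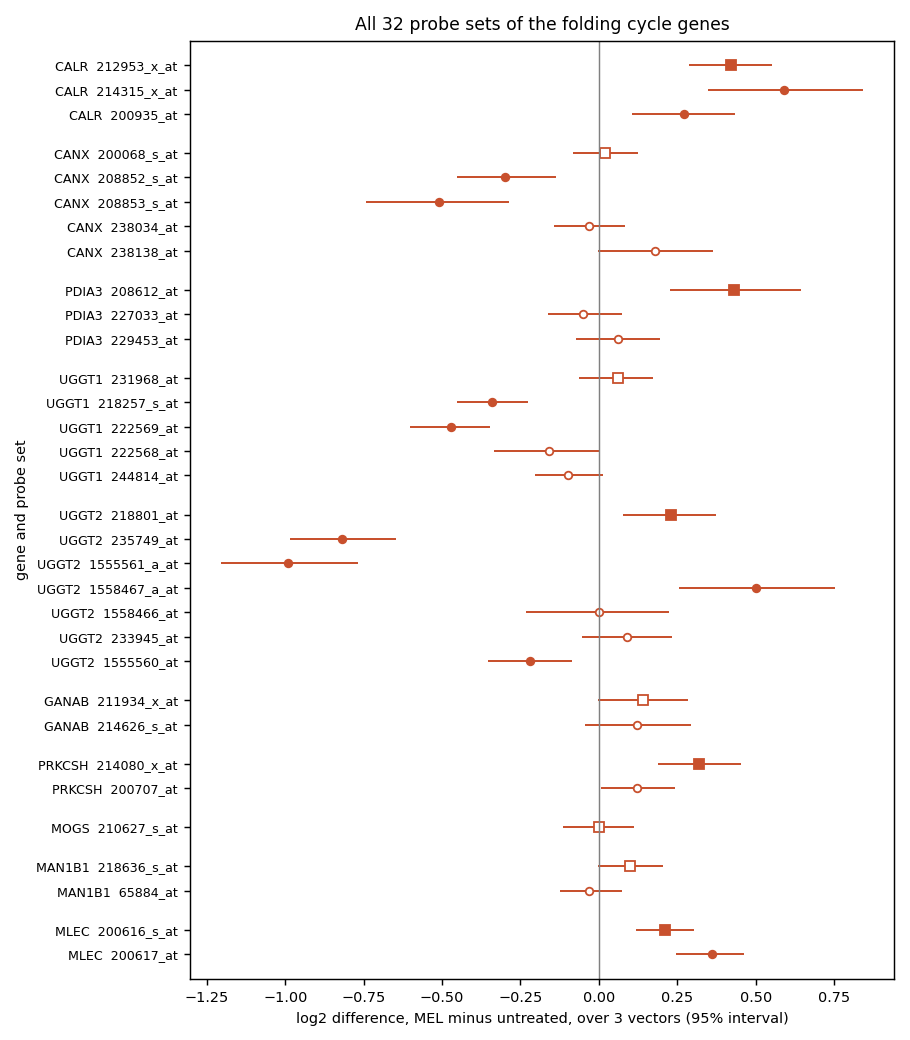
Log2 difference of MEL-exposed minus untreated cells over the 3 vectors (horizontal axis, with 95% intervals) for all 32 probe sets of the 10 genes (vertical axis), with squares for main probe sets, circles for the others and filled symbols for an adjusted p under 0.05. Of the 32 probe sets 9 were higher and 7 lower, and the lower ones belong to CANX, UGGT1 and UGGT2.

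Of all 54675 probe sets 33.7% were called with MEL, 17.1% higher and 16.6% lower, beside 16 of the 32 here. Within single vectors, 3 of the 10 genes were called in CALRwt (CALR, PRKCSH and MLEC), 2 in CALRdel52 (CALR and PRKCSH) and 1 in CALRins5 (CALR), all higher. Over all main probe sets, 18.1%, 13.3% and 11.6% were called in these vectors, of which 7.6%, 5.23% and 4.83% were higher. MEL and untreated arrays did not overlap for 5, 5 and 4 of the 10 genes, against 38.7%, 32.1% and 34.7% of all genes. The calls within a vector depended on single arrays. In CALRwt MLEC alone was called without any 1 of the untreated replicates or without MEL replicate 2. In CALRdel52 no gene was called without MEL replicate 3, and 1 was called without untreated replicate 2, MEL replicate 1 or CALRins5 untreated replicate 2. In CALRins5 no gene was called without any 1 of the untreated replicates or without MEL replicate 1 or 3, and 2 genes were called without MEL replicate 2 or without CALRwt MEL replicate 1.

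Mutated cells (CALRdel52 and CALRins5) were then compared with CALRwt cells. In untreated cells none of the 10 genes was called, as none of the 19775 genes was (0%). At an unadjusted p under 0.05 there were 2 of the 10, CALR and PDIA3, against 5.37% of all genes. With MEL none was called either, against 0.086% of all genes, and 1 of the 10, CALR, had an unadjusted p under 0.05, against 7.66%. Single pairs of vectors gave no call among the 10 either. In untreated cells 0.0556% of all genes were called for CALRdel52 against CALRwt, 0.0101% for CALRins5 against CALRwt and 1.13% for CALRins5 against CALRdel52. With MEL these shares were 0.0506%, 0.0759% and 0.0759%. The mutated and CALRwt arrays did not overlap for CALR and CANX in untreated cells (2.52% of all genes) and for CALR with MEL (3.06%).

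CALR was higher in the mean of the mutated cells by 0.40 untreated (SE 0.08, 95% interval 0.22 to 0.59, adjusted p = 0.448) and by 0.46 with MEL (SE 0.09, 95% interval 0.26 to 0.66, adjusted p = 0.131). The probe set 214315_x_at gave 0.65 (95% interval 0.31 to 1.00) and 0.71 (95% interval 0.34 to 1.09), with no overlap of the arrays in either treatment. 200935_at, the CALR probe set without _x_ in its name, gave 0.16 (95% interval −0.10 to 0.42) and 0.18, with overlap. On the main probe set the difference between the 2 mutated forms, CALRins5 minus CALRdel52, was 0.02 untreated (95% interval −0.20 to 0.23) and −0.07 with MEL (95% interval −0.30 to 0.16). None of these differences passed the threshold over all probe sets, and the smallest adjusted p of the main probe set in the alternatives was 0.26 untreated and 0.0655 with MEL.

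The 3 probe sets of PDIA3 gave differences of similar size between untreated mutated and CALRwt cells. They were 0.33 (SE 0.11, adjusted p = 0.771) on 208612_at, 0.39 (SE 0.07, adjusted p = 0.327) on 227033_at and 0.43 (SE 0.09, adjusted p = 0.425) on 229453_at. On 227033_at the untreated CALRwt arrays had 6.77, 6.82 and 6.68, the CALRdel52 arrays 6.98, 7.11 and 7.15, and the CALRins5 arrays 7.19, 7.27 and 7.18. On 229453_at they had 6.15, 5.91 and 6.09, then 6.51, 6.43 and 6.28, and then 6.51, 6.45 and 6.73. On both probe sets all mutated arrays lay above all CALRwt arrays, while on 208612_at they overlapped. With MEL the differences were 0.30, 0.26 and 0.24, with adjusted p of 0.666, 0.457 and 0.559, and the arrays overlapped on all 3.

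CANX in untreated cells was 0.14 higher in the mutated mean on its main probe set (95% interval 0.00 to 0.29, adjusted p = 0.857) and 0.19 on 238034_at (95% interval 0.04 to 0.35, adjusted p = 0.791), with no overlap on either. With MEL the CANX difference was 0.01 (95% interval −0.13 to 0.15). For MLEC with MEL the mutated mean was lower, with a difference of −0.12 on 200616_s_at (95% interval −0.26 to 0.01, adjusted p = 0.693) and of −0.27 on 200617_at (SE 0.07, 95% interval −0.43 to −0.11, adjusted p = 0.369). On 200617_at the MEL arrays of CALRwt, at 8.85, 8.78 and 8.84, all lay above those of CALRdel52, at 8.58, 8.47 and 8.65, and of CALRins5, at 8.63, 8.47 and 8.52. UGGT1, UGGT2, GANAB, PRKCSH, MOGS and MAN1B1 had mutated minus CALRwt differences of −0.10 to 0.21 untreated and −0.12 to 0.05 with MEL on their main probe sets.

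**Figure D4:**
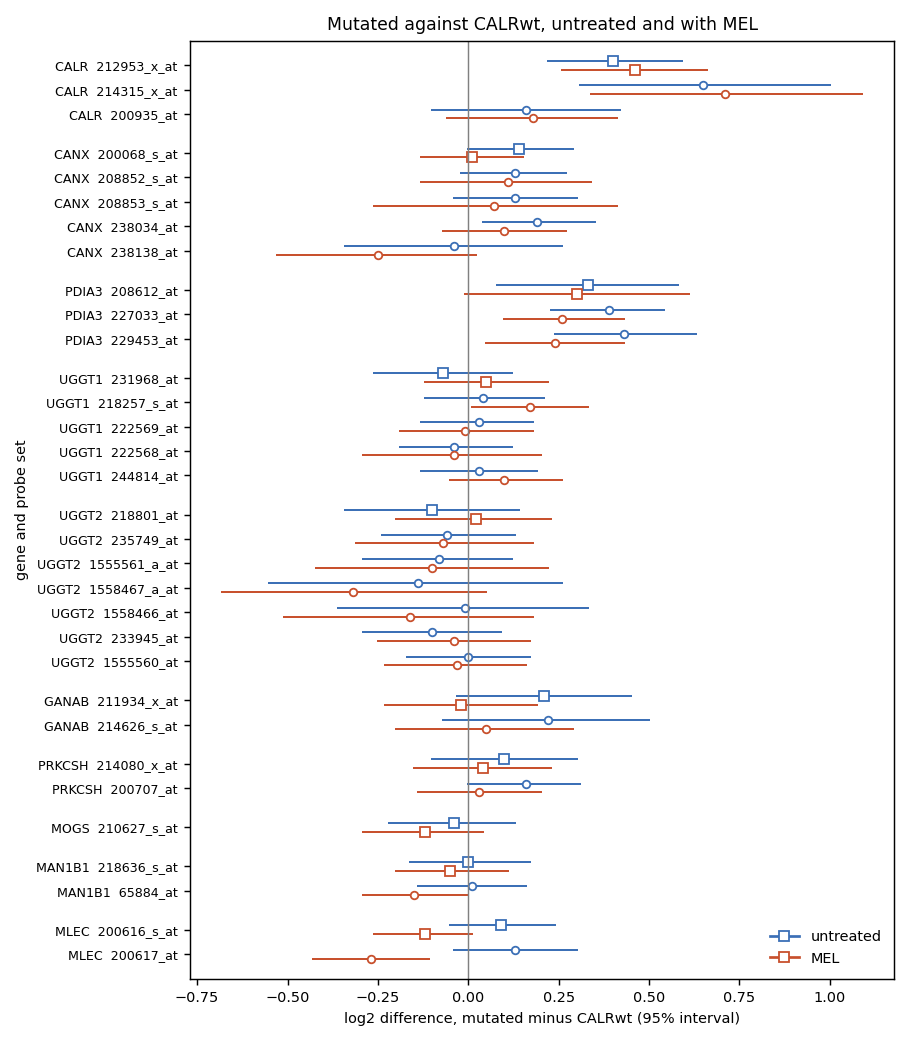
Log2 difference of mutated (CALRdel52 and CALRins5) minus CALRwt cells (horizontal axis, with 95% intervals) for the 32 probe sets of the 10 genes (vertical axis), untreated and with MEL, with squares for main probe sets and circles for the others. All symbols are open because none passed an adjusted p under 0.05, and the intervals of 2 CALR and 2 PDIA3 probe sets lie above 0 in both treatments.

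The difference in the MEL response between mutated and CALRwt cells was tested as an interaction. It was called for none of the 10 genes and for none of all genes (0%), and 1 of the 10, MLEC, had an unadjusted p under 0.05, against 4.49% of all genes. For MLEC the response of mutated cells minus that of CALRwt cells was −0.21 on 200616_s_at (SE 0.09, 95% interval −0.41 to −0.02, adjusted p = 0.995) and −0.40 on 200617_at (SE 0.11, 95% interval −0.62 to −0.18, adjusted p = 0.976). For CALR it was 0.06 (95% interval −0.23 to 0.34), for PDIA3 −0.03 (95% interval −0.47 to 0.41) and for GANAB −0.24 (95% interval −0.53 to 0.06). The MEL and vector comparisons share arrays, so these values are not independent of the ones above.

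The steps around the cycle were described by 54 further genes, of which 49 had a probe set of their own. Each was tested on its main probe set alone, without its other probe sets or the alternatives run for the 10 genes. With MEL over the 3 vectors 10 were higher, 13 lower and 26 not called. Among the main probe sets of all genes 36.7% were called, 18.6% higher and 18.1% lower. These shares also stand beside the counts of each list below, and no list was tested against them. Of the 18 measured genes that assemble the lipid-linked glycan precursor, 8 fell and 2 rose. The largest changes were those of ALG1, the first mannosyltransferase, which fell by 0.59 (limma adjusted p = 3.3e-06), MPDU1, needed for the use of dolichol-linked sugars, which fell by 0.45 (limma adjusted p = 0.00199), and DPM1, the dolichol-phosphate-mannose synthase, which fell by 0.42 (limma adjusted p = 8.27e-06).

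Of the 11 subunits of the oligosaccharyltransferase, which transfers the glycan to the protein, 2 fell and 2 rose, with DDOST at −0.29 (adjusted p = 0.00164) and RPN2 at 0.17 (adjusted p = 0.0059). Of 10 measured genes of mannose trimming and glycan-dependent degradation 5 rose and 1 fell. EDEM1, which delivers trimmed glycoproteins to degradation, rose by 0.35 (limma adjusted p = 0.000323), and SEL1L, an adaptor of the ubiquitin ligase of this pathway, rose by 0.29 (limma adjusted p = 0.00014). NGLY1, the cytosolic enzyme that removes the glycan, fell by 0.35 (limma adjusted p = 1.77e-05). EDEM2, ERLEC1 and MAN1A2, named after their values were seen, rose by 0.24, 0.26 and 0.15.

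Among 6 measured chaperone relatives and foldases, the testis calnexin homologue CLGN rose by 0.31 (limma adjusted p = 0.0193), and SELENOF, a partner of the folding sensors, and PDIA6, a disulfide isomerase, fell by 0.37 and 0.19 (adjusted p = 0.000548 and 0.022). None of the 4 lectins of ER export was called. The medians of the lists were −0.13 for precursor assembly, −0.04 for the transferase, 0.13 for trimming and degradation, −0.08 for the relatives and −0.03 for export, beside 0.17 for the 10 genes of the cycle. None of the 49 was called between mutated and CALRwt cells, untreated or with MEL, or in the difference of response. The ERSE letters were found in the windows of 2 of 48 of these genes, PDIA6 and ALG12, and ALG12 was not called with MEL (0.14).

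**Figure D5:**
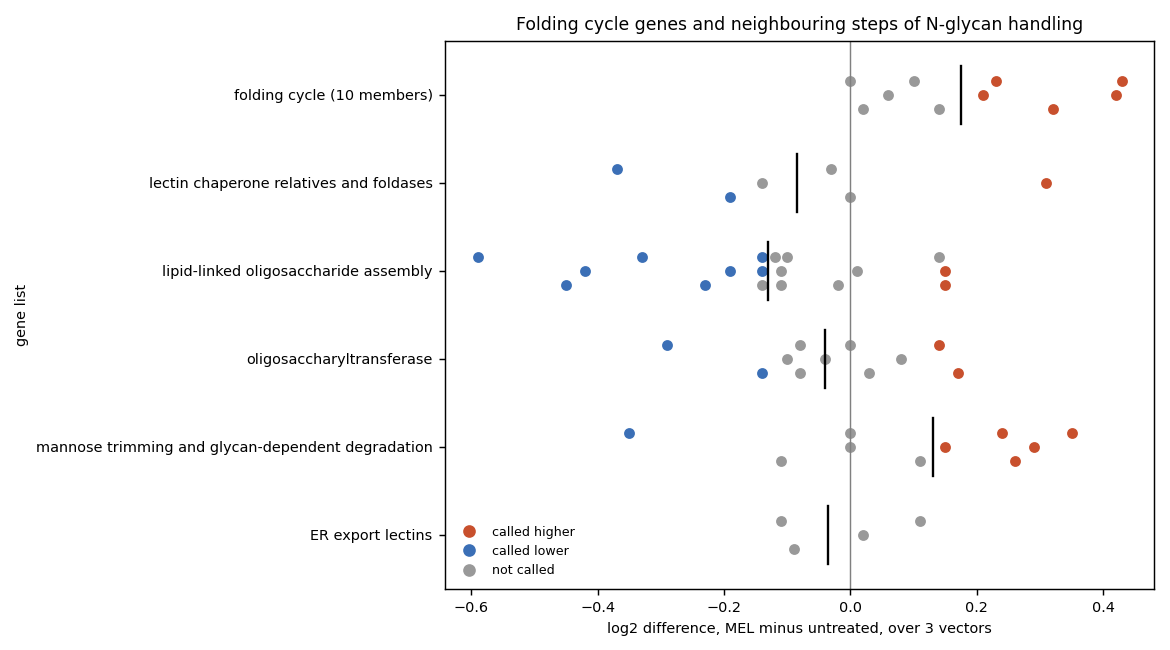
Log2 difference of MEL-exposed minus untreated cells over the 3 vectors (horizontal axis) for the main probe set of each gene in the cycle and in 5 lists of neighbouring steps (vertical axis), with 1 point per gene, coloured by the call, and a bar at each list's median. Points of 1 list are offset vertically for legibility, and the precursor assembly list holds 8 of the 13 lower calls.

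Across the 18 arrays, the 45 pairs of the 10 genes had correlations of −0.54 to 0.79 (Pearson r, median 0.30), of which 37 were positive. After the mean of each group was removed, the range was −0.56 to 0.57, with a median of 0.09 and 25 of 45 positive. The arrays share the treatment and the RNA quality that moved with it, so these values are descriptions. The non-member genes most like CALR over the 18 arrays were KANK2 (r = 0.898), FCSK (0.885), MRPL49 (0.883), ITPR3 (0.873) and NLRP12 (0.870). Those most like PDIA3 were CMBL (0.926), HGS (0.889), ZNF22 (0.871), TONSL (0.867) and NARS1 (0.853). Those most like CANX were CYBA (0.819), SERPINA6 (0.773), CTSS (0.769), PTGIR (0.760) and PRG2 (0.760).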

How the data were processed

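Total RNA of 18 samples was hybridised to Affymetrix arrays. Using Partek, the authors had converted probe signals by RMA, which corrects background, equalises arrays and summarises probes, and the deposited table holds 1 log2 value per probe set and array. The sources used here do not say over which arrays RMA was run. The study's methods name the HG-U219 array, whereas the deposited probe sets are those of HG-U133 Plus 2. Symbols came from the platform's probe table, in which 41097 probe sets name 1 gene, 1801 several and 11777 none.

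Tests used lmFit and eBayes of limma 3.58.1 under R 4.3.3, in a model of 6 groups over 18 arrays, or of 3 groups over 9 arrays for untreated vectors. p-values were adjusted by Benjamini-Hochberg over all 54675 probe sets, with a threshold of 0.05. The models were run on simulated data with independent noise for each array. Those data held no replicate pairing and no RNA quality that moved with MEL, so that run cannot speak to either. The number of arrays limits the precision, and no depth applies to arrays. Named genes were all 10 members with every probe set, at most 3 called genes by size of change from each neighbouring list (3 more of the trimming list were named after their values were seen), and the 5 genes most correlated with CALR, PDIA3 and CANX. Members and lists were chosen with earlier results of these data known. Between untreated CALRwt and CALRins5 arrays each of the 3 pairs with the same replicate number deviated together (r of 0.12 to 0.16). Among untreated arrays of all vectors, pairs with the same number had r of 0.04 to 0.23, and pairs with other numbers −0.22 to 0.11. The untreated arrays with the same number thus deviated together. Over all arrays, pairs with other numbers reached r of 0.25, between an untreated and a MEL array. These values do not settle whether the number also pairs the MEL arrays. Alternatives covered normalization, filters, probe sets, variance models, RNA quality, replicate blocks and omitted arrays.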

Additional observations from a re-analysis of the deposited data

Results flagged for a closer look

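MOGS, the first glucosidase of the cycle, was singled out because its MEL response differed in sign between the mutated vectors. It was −0.12 in CALRdel52, where every MEL array lay below the untreated mean, and 0.07 in CALRins5, where every MEL array lay above it. The MEL and untreated arrays overlapped in both vectors. Neither response was called, and the difference between the responses was not tested.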

How the results depend on the processing

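With MEL over the 3 vectors, 5 of the 10 genes were called. There were 8 after repeated quantile normalization, 3 with the GAPDH 3′ to 5′ covariate, and 3 to 5 when single arrays or replicate numbers were left out, the 3 without replicate 1. The averages of all probe sets gave CANX (−0.13), UGGT1 (−0.20) and UGGT2 (−0.17) the opposite sign to their main probe sets. Of these main probe sets only that of UGGT2 was called, and the cause was not tested. Without _x_ and _s_ probe sets PRKCSH was not called (0.12, adjusted p = 0.11), and GANAB and MOGS had no value. Over all probe sets 18402 were called, and 8682 with the covariate.

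Within CALRwt the count of 3 became 5 after quantile normalization, 1 each after centring, without _x_ and _s_ probe sets and with the covariate, and 0 to 3 with arrays left out. It was 4 with the averages of all probe sets, which added UGGT1 as lower (−0.24, adjusted p = 0.0315), and with trended robust variances, which added GANAB (0.29, adjusted p = 0.0479). Within CALRdel52 the count of 2 became 4 each after quantile normalization and among probe sets above the median, 1 each after centring, without _x_ and _s_ probe sets and with the covariate, 0 each with its own arrays alone in the model and without both arrays that stood apart, and 0 to 2 with arrays left out. It was 3, with MLEC added, with the averages of all probe sets, with trended robust variances and without moderation, and 1 without untreated replicate 2, MEL replicate 1 or CALRins5 untreated replicate 2. Within CALRins5 the count of 1 became 2 after quantile normalization, 0 each without _x_ and _s_ probe sets, with the covariate and without both arrays that stood apart, and 0 to 2 with arrays left out, the 2 also without CALRwt MEL replicate 1. All comparisons of vectors and of responses gave 0 in each of their alternatives.

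Of the pairs of arrays with the same replicate number, 15 of 45 had r over 0.1 (−0.22 to 0.23), against 9 of 90 pairs with other numbers. Untreated CALRwt and CALRins5 were the pair of untreated vectors in which every such r passed 0.1, and there the block called 0 of the 10 genes, as without it, and with a fixed block 3 instead of 5 of all probe sets. With the number as a fixed or random block, 5 genes were called over the 3 vectors. The fixed block added UGGT2 in CALRdel52 (0.33, adjusted p = 0.0456) and gave 3 there. The other counts of the 10 genes did not move with the block.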
